A study of Homo sapiens with 5 samples.

Results

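Ribosome biogenesis genes encode the nucleolar proteins that transcribe, modify and fold ribosomal RNA and assemble it into subunits. Here they are 38 nucleolar and ribosome assembly genes taken from a list of symbols. All 38 were present in each of the 5 libraries and in at least 10 wells, and so in the 15028 genes analysed. A longer list of 128 other genes of the same pathway was followed beside them.

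Ribosomes are made in the nucleolus. RNA polymerase I transcribes a long precursor of ribosomal RNA, small nucleolar RNPs methylate and pseudouridylate it, and the small subunit processome and a series of large subunit assembly factors fold, cleave and export the particles. The pathway runs at a high rate in growing cells, is raised in many colorectal cancers, and many of its genes are known targets of the transcription factor MYC.

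SW480 is an established human colorectal cancer line, and here its cells carried GFP. The cells were injected into zebrafish, tumors were dissected and pooled at 1 or 4 days post injection (dpi), and single live cells were sorted into 384-well plates for SORT-seq, which counts 3′ ends of transcripts by UMI. Each plate is 1 library: libraries 6, 7 and 8 hold cells of 1 dpi and libraries 10 and 11 cells of 4 dpi, and both groups share line, GFP label and host. The study's design holds that clones should not yet have been cleared at 1 dpi, and takes cells of 4 dpi as those of clones that escaped clearance. About 100 tumors went into a pool. It is not given if the plates of 1 time point drew on 1 pool or several. The names of the deposited files carry 1 flow cell code for libraries 6, 7 and 10 and another for libraries 8 and 11.

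After filtering, the libraries held 228, 142 and 163 cells of 1 dpi and 132 and 161 cells of 4 dpi, 826 in total. Their UMIs summed to 7503665, 5376698 and 4781448 at 1 dpi and 3961242 and 3789632 at 4 dpi. The median cell had 30976 UMIs at 1 dpi and 22278 at 4 dpi, with 11.6% and 12.9% of them mitochondrial. The same 384 well barcodes recur on each plate because they mark plate positions.

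The cells carried the markers of the line. Of 10 colorectal epithelial markers, 9 were in the joined table (CDX1 was not), and their summed level was 4766, 5484, 5846, 4802 and 5028 CPM in libraries 6, 7, 8, 10 and 11, a common measure of UMIs scaled to equal totals. Sums of genes and levels of single markers in this paragraph are given per total UMIs, and levels of other single genes after TMM scaling. KRT8, a simple epithelial keratin, was the most abundant, and EPCAM was detected in 100% of cells. Markers of leukocytes, endothelium and fibroblasts summed to 8.66, 10.6, 10.2, 21.5 and 11.6 CPM in the same order, over the 6 of 13 that were in the table. COL1A1, a collagen chain, was the most abundant of those at 4 dpi, with 1.47, 4.09, 2.72, 16.7 and 7.12 CPM in that order. CD14 had 2.00, 2.05, 3.14, 0.252 and 1.32 CPM, and CSF1R 1.73, 2.05, 2.09, 0.757 and 0.264. Both values were lower at 4 dpi, but they rest on few UMIs and were not tested. CD14 had 15, 11, 15, 1 and 5 UMIs, and CSF1R 13, 11, 10, 3 and 1. LYZ, PECAM1 and VWF overlapped between the time points. PTPRC, CD3E, CDH5, COL1A2, COL3A1 and DCN were among those not in the joined table. The part of the COL1A1 signal in the results was not tested. Depth was lower at 4 dpi, and the tests were also run on cells thinned to equal UMIs. Thinning does not remove a relation of the members to a cell's original depth, which is given below.

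The members spanned a wide range of levels. The 38 genes together took 7327, 7225 and 7763 at 1 dpi and 6729 and 7045 at 4 dpi, in CPM. NPM1, nucleophosmin, an abundant scaffold of the nucleolus, held 24.1% of the members' UMIs. NOP56, a core protein of box C/D snoRNPs, held 7.56%, and DDX21, an RNA helicase that couples rRNA transcription to processing, held 7.23%. At the other end PPAN, a large subunit assembly factor, had 144 UMIs in the 826 cells. UMIs of 3′ ends do not scale with transcript length, so these levels compare between genes without a length correction. Reads of NPM1 may be shared with its processed pseudogenes, and PPAN shares transcripts with the readthrough gene PPAN-P2RY11, so their levels are uncertain. In cells thinned to 5000 UMIs the median cell had 33, 35 and 37 UMIs of the members at 1 dpi, and 30 and 32 at 4 dpi.

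A short sequence in their promoters is shared by many members. CACGTG, the canonical E-box that MYC and related factors are known to bind, was in the promoter window of 19 of the 31 members that the RefSeq promoter table holds (61.3%). The window runs from 250 bases before to 50 bases after the start of transcription in GRCh38.p14, and both strands were searched. The same letters were in 12.5% of 9400 genes tested between the time points and in 7.26% of all 35116 promoters in the table, against 50% of the members' 40 promoters. The ETS core CCGGAA was in 18 of 31 members, 35.3% of the tested genes and 17.2% of all promoters. The GC box GGGCGG was in 23 members and 77.0% of the tested genes, with 45.0% of all promoters. CCAAT was in 14 members, 43.5% of the tested genes and 34.6% of all promoters. The noncanonical E-box CACGCG was in 8 members, 22.6% of the tested genes and 11.4% of all promoters. NOP58, NOLC1, RRP1B, RRP12, RRS1, BOP1 and DDX18 are not in the promoter table.

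The promoters of the members that changed between 1 and 4 dpi and hold CACGTG are printed here, since of the motifs searched its share among members lay furthest above that of the tested genes, and those genes carry the time comparison. Each reads 5′ to 3′ along its gene, with the E-box in capitals. The motif begins 10 bases before the start site of UTP20 (chr12:101279855-101280154, plus strand) and 64 bases before 1 of the 2 listed start sites of LYAR (chr4:4289972-4290271, minus strand). It begins 35 bases past the start site of NOP2 (chr12:6568242-6568541, minus strand), 14 past that of MRTO4 (chr1:19251555-19251854, plus strand), 3 past that of WDR43 (chr2:28894417-28894716, plus strand) and 13 past that of PES1 (chr22:30591861-30592160, minus strand). The first 5 of these genes fell and PES1 rose, though the changes of MRTO4, WDR43 and PES1 depended on the test used, as given below. Of the 19 members with the motif, these 6 changed between the time points.
UTP20: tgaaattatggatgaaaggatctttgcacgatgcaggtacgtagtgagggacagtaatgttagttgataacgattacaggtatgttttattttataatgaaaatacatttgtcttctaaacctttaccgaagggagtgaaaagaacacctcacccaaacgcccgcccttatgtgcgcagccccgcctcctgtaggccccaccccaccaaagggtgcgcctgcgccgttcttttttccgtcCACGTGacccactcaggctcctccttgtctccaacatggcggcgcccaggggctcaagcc
LYAR: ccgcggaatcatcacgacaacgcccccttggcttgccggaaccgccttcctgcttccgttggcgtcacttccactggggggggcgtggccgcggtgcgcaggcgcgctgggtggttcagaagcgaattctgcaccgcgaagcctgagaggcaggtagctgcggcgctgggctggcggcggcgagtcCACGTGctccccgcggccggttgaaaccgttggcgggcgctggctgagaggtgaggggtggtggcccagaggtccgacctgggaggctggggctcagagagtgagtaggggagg
NOP2: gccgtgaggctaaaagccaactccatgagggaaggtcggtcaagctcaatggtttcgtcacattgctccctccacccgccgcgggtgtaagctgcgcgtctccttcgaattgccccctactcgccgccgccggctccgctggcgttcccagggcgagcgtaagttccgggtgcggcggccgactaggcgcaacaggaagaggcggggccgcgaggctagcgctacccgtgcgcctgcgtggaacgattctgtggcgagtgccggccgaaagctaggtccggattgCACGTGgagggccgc
MRTO4: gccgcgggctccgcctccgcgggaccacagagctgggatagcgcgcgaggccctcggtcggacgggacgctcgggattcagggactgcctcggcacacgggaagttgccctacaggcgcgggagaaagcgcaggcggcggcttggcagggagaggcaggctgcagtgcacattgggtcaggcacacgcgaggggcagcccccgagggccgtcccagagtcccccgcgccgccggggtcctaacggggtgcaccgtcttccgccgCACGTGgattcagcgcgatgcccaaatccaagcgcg
WDR43: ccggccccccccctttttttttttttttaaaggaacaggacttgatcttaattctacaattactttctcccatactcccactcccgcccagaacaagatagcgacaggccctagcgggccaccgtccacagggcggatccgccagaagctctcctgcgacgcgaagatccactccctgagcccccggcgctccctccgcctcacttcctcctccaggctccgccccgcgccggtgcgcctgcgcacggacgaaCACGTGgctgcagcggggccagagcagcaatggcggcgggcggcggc
PES1: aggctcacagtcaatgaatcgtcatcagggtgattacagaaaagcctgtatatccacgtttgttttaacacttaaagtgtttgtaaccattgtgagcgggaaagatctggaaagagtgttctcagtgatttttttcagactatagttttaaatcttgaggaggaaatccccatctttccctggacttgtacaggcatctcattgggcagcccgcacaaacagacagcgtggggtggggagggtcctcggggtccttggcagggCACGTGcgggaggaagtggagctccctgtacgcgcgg

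Between 1 and 4 dpi, 9 members fell and 1 rose. Those that fell were POLR1B of RNA polymerase I, UTP20 and WDR43 of the small subunit processome, NOP16, NOP2 and MRTO4 of large subunit assembly, NOP58 of the box C/D snoRNPs, and the nucleolar factors NOLC1 and LYAR. PES1, a large subunit factor, rose. Each called gene passed edgeR's quasi-likelihood test at a Benjamini-Hochberg adjusted p under 0.05 over 12610 genes, a value given here as edgeR adjusted p. Of all genes tested, 13.4% were called higher and 14.2% lower, against 2.63% and 23.7% of the members. The median log2 change was -0.18 over the 38 members and 0.0019 over all genes. For 24 members the 1 dpi and 4 dpi ranges were separate, 4 higher and 20 lower at 4 dpi, where 27.0% of all genes were higher and 27.7% lower in that way. DESeq2 called 7 members lower and 0 higher (2 higher by edgeR at an unadjusted p under 0.05), and did not call WDR43, PES1 or MRTO4 (DESeq2 adjusted p = 0.0512, 0.0608 and 0.0988). On cells thinned to 5000 UMIs, UTP20, NOP16, NOLC1 and NOP58 passed edgeR's test, and so did DDX21 (edgeR adjusted p = 0.0153, log2 change of -0.22 on all UMIs). The other 6 did not pass on thinned cells. Without library 11, 5 members were called. All 10 called members are among those 24. Their separate ranges fix the same direction within both flow cells, so that agreement adds nothing to the separation. Changes of the 28 members that were not called ran from -0.34 (RRS1) to 0.31 (GAR1).

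**Figure D1:**
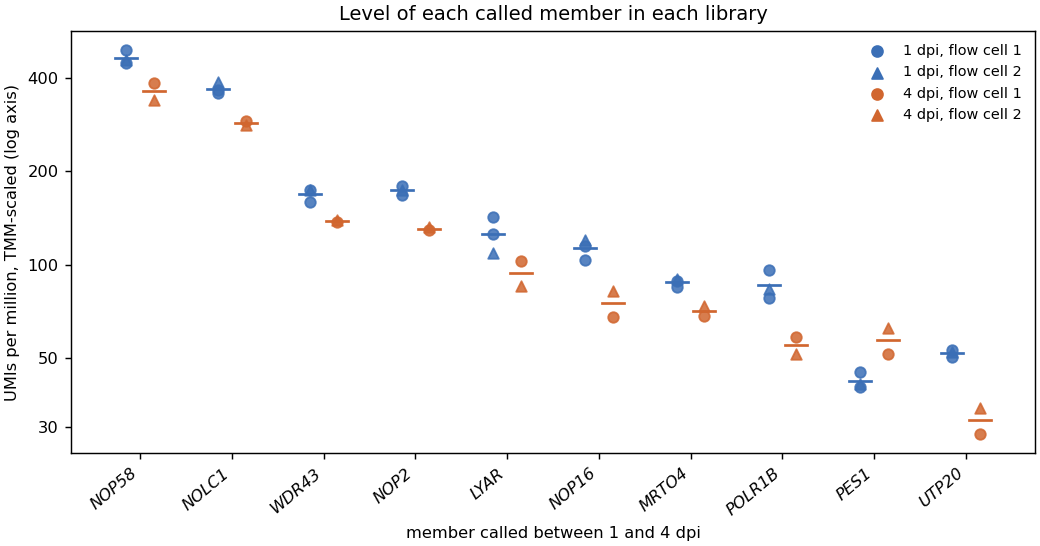
CPM, scaled by TMM, of the 10 members called between the time points, on a log axis, with 1 point per library (blue for 1 dpi, orange for 4 dpi, shapes for flow cells) and a line at each group's mean. The orange points lie below the blue ones for 9 genes and above them for PES1.

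The RNA polymerase I subunits come first in the pathway. POLR1B, the second-largest subunit of the enzyme and the more abundant of the pair listed, had 95.9, 77.8 and 83.4 CPM at 1 dpi and 58.4 and 51.5 at 4 dpi. Both 4 dpi libraries were below the lowest 1 dpi library, with a log2 change of -0.64 (SE 0.13, edgeR adjusted p = 0.00159). The log2 difference was -0.57 within flow cell 1 and -0.69 within flow cell 2. On thinned cells the call was lost (edgeR adjusted p = 0.157). POLR1C, a subunit shared with RNA polymerase III, had a log2 change of -0.23 and was not called.

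In the small subunit processome, UTP20 and WDR43 fell out of 9 members. UTP20, a very large scaffold protein that wraps the small subunit precursor, had 53.0, 50.3 and 52.3 CPM at 1 dpi and 28.4 and 34.4 at 4 dpi. The groups were far apart, and the gene had the largest fall of any member, a log2 change of -0.73 (SE 0.14, edgeR adjusted p = 0.00108). WDR43, a component of the complex that binds the nascent precursor first, was the most abundant of the 9, with 159, 175 and 174 CPM at 1 dpi and 137 and 139 at 4 dpi. Its libraries did not overlap either, and it fell by a smaller step, a log2 change of -0.29 (SE 0.10, edgeR adjusted p = 0.0360). That call was lost without library 7, 8, 10 or 11, at edgeR adjusted p = 0.106, 0.0939, 0.135 and 0.108, on thinned cells at 0.488 and at a mitochondrial maximum of 15% at 0.275. None of the other 7 was called, and all 9 had values below 0 relative to 1 dpi, from -0.73 to -0.011 for NOP14, which had 0.015 without TMM scaling.

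Among 15 large subunit factors, NOP16, NOP2 and MRTO4 fell and PES1 rose. NOP16, a nucleolar protein of the early large subunit precursor, had 104, 115 and 120.3 CPM at 1 dpi and 67.7 and 82.3 at 4 dpi. Its 4 dpi libraries lay well below those of 1 dpi, with a log2 change of -0.59 (SE 0.12, edgeR adjusted p = 0.00195). NOP2, which methylates a cytosine of large subunit rRNA, had 179.7, 168 and 173 CPM at 1 dpi and 129 and 132 at 4 dpi. Within each time point its libraries were close together, and the groups were separate, with a log2 change of -0.41 (SE 0.10, edgeR adjusted p = 0.00529), though the call was lost on thinned cells (edgeR adjusted p = 0.239). MRTO4, which holds the place of the ribosomal stalk on the precursor, had 84.5, 88.8 and 90.1 CPM at 1 dpi and 68.5 and 73.7 at 4 dpi, and a log2 change of -0.30 (SE 0.11, edgeR adjusted p = 0.0485). This call was lost whichever of the 5 libraries was left out, with edgeR adjusted p between 0.0572 and 0.233, and on thinned cells, at 0.628. DDX18, an RNA helicase and the most abundant of the 15, had 224, 220.0 and 217 CPM at 1 dpi and 198 and 198 at 4 dpi. Its groups did not overlap, but the log2 change of -0.15 (SE 0.091, edgeR adjusted p = 0.222) did not pass.

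PES1 was the 1 member called higher, by edgeR and not by DESeq2 (DESeq2 adjusted p = 0.0608). It forms a complex with BOP1 and WDR12 that is needed to process the large subunit rRNA, and it had 40.4, 45.0 and 41.2 CPM at 1 dpi and 51.6 and 62.5 at 4 dpi. Both 4 dpi libraries were above the highest 1 dpi library, with a log2 change of 0.44 (SE 0.13, edgeR adjusted p = 0.0191). The call was lost without library 6, 8 or 11, at edgeR adjusted p = 0.0560, 0.0506 and 0.230, and on thinned cells, at 0.187. Its partners were not called. BOP1 had a log2 change of 0.019 (SE 0.21) with overlapping libraries, and WDR12 one of -0.27 (SE 0.13). With ERCC scaling PES1 had 0.17 and BOP1 -0.31.

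The box C/D snoRNPs guide methylation of rRNA, and 1 of their 3 listed proteins fell. NOP58, a core protein of these particles, had 491, 448 and 456 CPM at 1 dpi and 385 and 340.0 at 4 dpi. The groups did not overlap, with a log2 change of -0.36 (SE 0.094, edgeR adjusted p = 0.00961), a call that did not hold without library 11 (edgeR adjusted p = 0.104) or at a mitochondrial maximum of 15% (edgeR adjusted p = 0.0916). NOP56, its paralog and partner and the most abundant of the 3, had 561, 575 and 581 CPM at 1 dpi and 473 and 536 at 4 dpi, and its log2 change of -0.18 was not called. FBL, the methyltransferase itself, had a log2 change of 0.059 with overlapping libraries, and -0.11 with ERCC scaling.

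The box H/ACA snoRNPs guide pseudouridylation, and 0 of their 4 proteins were called by edgeR, with 2 at an unadjusted p under 0.05 (1 higher and 1 lower) and 0 called by DESeq2. DKC1, the pseudouridine synthase and the most abundant of the 4, had 394, 339.8 and 341 CPM at 1 dpi and 318 and 304 at 4 dpi, a log2 change of -0.20 (SE 0.10). GAR1 had 51.1, 57.0 and 55.9 CPM at 1 dpi and 70.7 and 64.8 at 4 dpi, with 4 dpi above 1 dpi and a log2 change of 0.31 (SE 0.12, edgeR adjusted p = 0.0552). NHP2 and NOP10 had log2 changes of 0.15 and -0.047, and NHP2 had -0.048 with ERCC scaling. The summed level of the 4 was 691, 661 and 662 CPM at 1 dpi and 679 and 652 at 4 dpi, so the groups overlapped.

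Among 5 nucleolar scaffold proteins and helicases, NOLC1 and LYAR fell. NOLC1, a chaperone that carries both classes of snoRNP to the nucleolus, had 365, 357 and 388 CPM at 1 dpi and 291 and 283 at 4 dpi. The groups were separate, with a log2 change of -0.37 (SE 0.090, edgeR adjusted p = 0.00711), and the call held without each library in turn. LYAR, a zinc finger protein of the nucleolus that acts in rRNA processing, had 143, 125 and 109 CPM at 1 dpi and 103 and 85.1 at 4 dpi. Library 10 came close to the lowest 1 dpi library, with a log2 change of -0.43 (SE 0.13, edgeR adjusted p = 0.0197), a call that did not hold without library 6 or 11 or on thinned cells (edgeR adjusted p = 0.0801, 0.174 and 0.120). NPM1, by far the most abundant member, had 1578, 1678 and 2159 CPM at 1 dpi and 1603 and 1861 at 4 dpi. Its libraries overlapped, with both flow cell 2 libraries above the flow cell 1 library of the same time point, and its log2 change of -0.059 (SE 0.12) was not called. NCL, nucleolin, had 452, 444 and 404 CPM at 1 dpi and 457 and 472 at 4 dpi, with both 4 dpi libraries above those of 1 dpi, and its log2 difference of 0.10 (-0.13 with ERCC scaling) did not pass the test.

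In the rest of the pathway, more genes fell than rose. Of the 128 other ribosome biogenesis genes, 34 fell (26.6%) and 6 rose (4.69%), beside 14.2% and 13.4% of all genes, with a median log2 change of -0.12. By role, 16 of 49 small subunit (32.7%) and 12 of 42 large subunit factors (28.6%) fell. The counts were 3 of 15 exosome and nuclease genes, 2 of 13 genes of RNA polymerase I and 1 of 2 of box H/ACA assembly, with 0 of 7 of box C/D assembly called lower (2 lower at an unadjusted p under 0.05, 0 by DESeq2). SHQ1, the chaperone that delivers DKC1, had 33.0, 23.2 and 27.1 CPM at 1 dpi and 14.8 and 13.0 at 4 dpi, with a log2 change of -1.004 (SE 0.20, edgeR adjusted p = 0.00164). LTV1, a late factor of the small subunit, had 151, 146 and 144 CPM at 1 dpi and 81.3 and 71.3 at 4 dpi, with a log2 change of -0.94 (SE 0.11, edgeR adjusted p = 1.78e-05). Both were clearly lower at 4 dpi, and their falls exceeded those of the 38 members. DDX31, a nucleolar helicase of large subunit assembly, had 34.5, 35.5 and 36.5 CPM at 1 dpi and 20.1 and 20.04 at 4 dpi, with a log2 change of -0.82 (SE 0.15, edgeR adjusted p = 0.000969). In the other direction RRP1, a large subunit factor, had 13.8, 15.2 and 16.4 CPM at 1 dpi and 26.9 and 31.8 at 4 dpi, with a log2 change of 0.96 (SE 0.17, edgeR adjusted p = 0.000789). EXOSC6, a core subunit of the RNA exosome, had 21.1, 20.5 and 25.8 CPM at 1 dpi and 39.3 and 37.7 at 4 dpi, with a log2 change of 0.78 (SE 0.15, edgeR adjusted p = 0.00153). These 2 genes were higher in both 4 dpi libraries than in any of 1 dpi. PIH1D1, a subunit of a chaperone complex that assembles box C/D particles, had 88.0, 69.7 and 78.5 CPM at 1 dpi and 113 and 115 at 4 dpi, with a log2 change of 0.53 (SE 0.11, edgeR adjusted p = 0.00316). The proteins that the pathway assembles into ribosomes are a list of their own. Of 78 cytosolic ribosomal protein genes tested, 1 rose and 4 fell, with a median of -0.029. Those genes also have many processed pseudogenes that could share their reads.

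MYC, the factor best known for driving these genes, was among the genes that fell. It had 326, 427 and 379.9 CPM at 1 dpi and 247 and 219 at 4 dpi, clearly lower at 4 dpi, with a log2 change of -0.70 (SE 0.11, edgeR adjusted p = 0.000396). Of 23 known MYC targets outside the pathway 3 fell (13.0%) and 2 rose (8.70%), no larger a share than the 14.2% and 13.4% of all genes, with a median of -0.10. TFRC, the transferrin receptor, had 344, 345 and 313 CPM at 1 dpi and 134 and 137 at 4 dpi, with a log2 change of -1.30 (SE 0.10, edgeR adjusted p = 3.11e-07). In the opposite direction CAD, the enzyme that starts pyrimidine synthesis, had 42.3, 35.1 and 43.5 CPM at 1 dpi and 58.4 and 63.0 at 4 dpi, with a log2 change of 0.59 (SE 0.13, edgeR adjusted p = 0.00346).

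The other genes of the MYC network did not move as one. MAX, the partner that MYC needs to bind DNA, had 117, 119 and 125 CPM at 1 dpi and 102 and 92.9 at 4 dpi, with a log2 change of -0.30 (SE 0.10, edgeR adjusted p = 0.0432). MXD1, an antagonist that competes for MAX, had 95.2, 123 and 109.8 CPM at 1 dpi and 65.4 and 81.2 at 4 dpi, with a log2 change of -0.57 (SE 0.13, edgeR adjusted p = 0.00457). Both lay lower at 4 dpi without overlap. The MAX call was lost whichever of the 5 libraries was left out, with edgeR adjusted p from 0.0572 to 0.249, and the MXD1 call without library 10 (edgeR adjusted p = 0.0534). The MYC relatives rose from low levels: MYCN had 1.07, 2.47 and 0.630 CPM at 1 dpi and 5.29 and 6.77 at 4 dpi, with a log2 change of 2.11 (SE 0.46, edgeR adjusted p = 0.00326), and MYCL had 8.83, 5.13 and 8.61 CPM at 1 dpi and 16.1 and 17.7 at 4 dpi, with a log2 change of 1.15 (SE 0.25, edgeR adjusted p = 0.00298). Even at 4 dpi both were far below MYC. Further antagonists rose: MXD3 had 3.21, 3.99 and 5.67 CPM at 1 dpi and 8.81 and 11.7 at 4 dpi, with a log2 change of 1.29 (SE 0.31, edgeR adjusted p = 0.00577), MXD4 had 11.2, 14.6 and 16.0 CPM at 1 dpi and 22.1 and 23.7 at 4 dpi, with a log2 change of 0.74 (SE 0.20, edgeR adjusted p = 0.0108), and MXI1 had 25.7, 28.3 and 27.9 CPM at 1 dpi and 37.8 and 37.2 at 4 dpi, with a log2 change of 0.46 (SE 0.14, edgeR adjusted p = 0.0215). The MXD3 and MXD4 calls were lost without library 11 (edgeR adjusted p = 0.0706 and 0.0643), and the MXI1 call without library 6, 10 or 11 (edgeR adjusted p up to 0.0885). MNT, MGA and MLX were not called, with log2 changes of 0.33, 0.11 and 0.33.

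Summed over the 38 members, the level was 7438 ± 285 CPM at 1 dpi (SD, n = 3) and 6887 ± 223 at 4 dpi (n = 2), a ratio of 0.926. The libraries did not overlap, and the ratio was 0.925 within flow cell 1 and 0.908 within flow cell 2. Without NPM1 and NCL, the sum was 5220.2 ± 79.5 (n = 3) and 4671 ± 12.5 (n = 2), a ratio of 0.895. Ribosomal protein genes summed to 135632 ± 4687 and 135305 ± 1825 CPM. Per ERCC spike-in UMI the members had 0.786, 0.857 and 0.434 at 1 dpi and 0.751 and 0.349 at 4 dpi. On that scale the flow cell 2 libraries, 8 and 11, were the lowest of their time points, and the time points overlapped. Within a flow cell 4 dpi was lower, with ratios of 0.914 in flow cell 1 and 0.804 in flow cell 2, and the ERCC fit that follows has no flow cell term. With ERCC scaling the median log2 change of all genes was -0.20 and that of the members -0.40, which is -0.20 relative to all genes. The other ribosome biogenesis genes had -0.34, or -0.14 relative to all genes. On that scale 36 of 38 members were below 0, beside 8434 of all 12610 genes. The 9 called falls stayed below 0, which a downward shift of genes in general favors, and PES1 stayed above 0 at 0.17. By edgeR 0 members were called (0 at an unadjusted p under 0.05). With library totals and no TMM, 2 members were called higher and 7 lower. With ERCC scaling 29 of 38 members lay below the median of all genes. Whether the pathway fell by more than UMIs in general on the absolute scale was not tested.

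**Figure D2:**
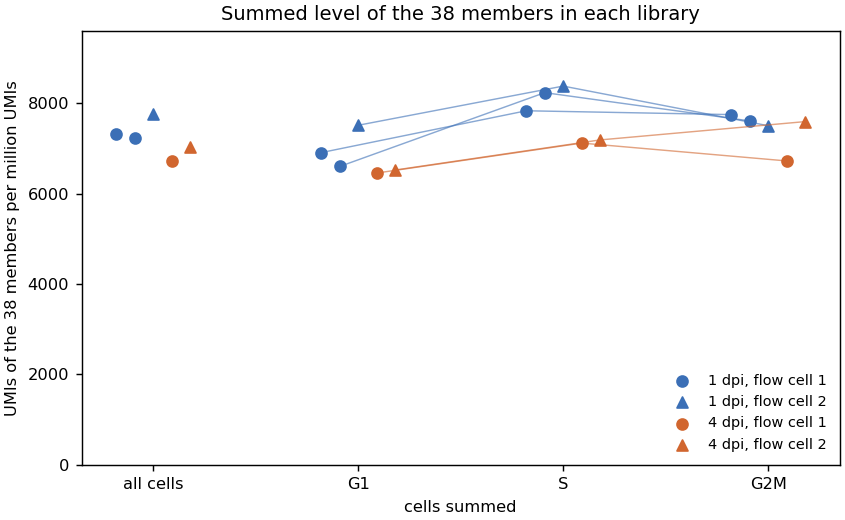
Summed CPM of the 38 members in each library (vertical axis), summed over all its cells and over its cells of each phase (horizontal axis), with lines joining the phases of a library. In all cells the 4 dpi libraries lie at 6729 and 7045, below the lowest 1 dpi library at 7225, and S lies above G1 in each library.

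By Seurat's phase calls, a larger share of cells was in G2M in the 4 dpi libraries and the shares in S overlapped, and no other measure of cycling was compared. By expression of phase genes, 40.3%, 43.6% and 33.8% of the cells of libraries 6, 7 and 8 were in S or G2M, against 52.3% and 50.9% of libraries 10 and 11. For G2M alone the shares were 11.5%, 17.9% and 10.6% against 25.4% and 28.3%, and for S 28.8%, 25.7% and 23.1% against 26.9% and 22.6%. Of 815 cells scored, 147 lay within 0.05 of the limit of G1, so the classes are ranges of a score and not discrete states. The members that were called inside each kind of cell were mostly lower at 4 dpi. Among G1 cells 6 members fell and 1 rose, where 9.66% of all genes were called higher and 10.0% lower, with a median log2 change of -0.12 over the members and 0.00080 over all genes. Among S and G2M cells 7 fell and 0 rose (1 higher at an unadjusted p under 0.05, 0 by DESeq2), where 8.13% and 7.35% of all genes were called, with medians of -0.21 and -0.00062. The number called in G1 cells was 2, 3 and 1 without library 6, 10 and 11, and that in S and G2M cells 4, 4, 3 and 3 without library 6, 7, 10 and 11. UTP20, POLR1B, NOP2, LYAR and NOP58 fell in both. UTP20 had a log2 change of -0.67 in G1 (edgeR adjusted p = 0.0163) and -0.77 in S and G2M (edgeR adjusted p = 0.01004), and POLR1B one of -0.59 (edgeR adjusted p = 0.0189) and -0.69 (edgeR adjusted p = 0.00630), each lower in both 4 dpi libraries. NOLC1 was also called lower in G1 cells and PES1 higher, and NOP16 and MRTO4 lower in S and G2M cells. The test of the difference itself, the interaction of time with phase, called 0 members by edgeR and 0 by DESeq2, against 0.296% of all genes higher and 0.439% lower in cycling cells. At an unadjusted p under 0.05 it had 1 member, NOP16, with a log2 interaction of -0.45 (edgeR adjusted p = 0.345).

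Cells in S phase held more of the members than G1 cells of the same library. Of 37 members tested, 13 were higher in S and 0 lower (2 lower at an unadjusted p under 0.05, 0 by DESeq2), where 17.8% of all genes were called higher and 17.3% lower. The median log2 difference was 0.18 over the members and -0.026 over all genes. By role, 4 of 5 nucleolar factors, 2 of 4 box H/ACA, 1 of 3 box C/D, 5 of 14 large subunit and 1 of 9 small subunit members were called. The small subunit call, UTP4, was lost without library 6, 7 or 8 (edgeR adjusted p up to 0.199). Of the large subunit calls, WDR12 was lost without library 7, 8 or 11 and EBNA1BP2 without library 6, 7 or 11 (edgeR adjusted p up to 0.181 and 0.0996). NHP2, which binds the box H/ACA guide RNA, had 217, 256, 244, 271 and 299.5 CPM in S cells of libraries 6, 7, 8, 10 and 11. In G1 cells of those libraries it had 125, 166, 164, 162 and 164. It was higher in S in 5 of 5 libraries, by a log2 difference of 0.71 (SE 0.10, edgeR adjusted p = 1.88e-05). FBL had 510.1, 526, 481, 588 and 596 in S and 331, 343, 371, 383 and 303 in G1, higher in 5 of 5, by 0.64 (SE 0.091, edgeR adjusted p = 1.40e-05). MRTO4, a gene that fell with time, had 104, 135, 108, 86.3 and 86.7 in S and 66.8, 65.2, 80.6, 63.1 and 63.8 in G1, higher in 5 of 5, by 0.61 (SE 0.12, edgeR adjusted p = 0.000508). LYAR, NOLC1 and NOP16 likewise fell with time and were higher in S, by 0.61, 0.48 and 0.41, with the NOP16 call lost without library 6 (edgeR adjusted p = 0.0631). The cells in S were also deeper, with a median of 32805 UMIs against 24716 in G1, and had 13.7% mitochondrial UMIs against 10.7%, and the part of either in the difference was not measured. On thinned cells 10 members were called, and at a mitochondrial maximum of 15% 9 were, in place of 13.

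Other lists set this against the rest of the cell. Of 78 ribosomal protein genes, 66 were higher in S and 0 lower (0 at an unadjusted p under 0.05, 0 by DESeq2), with a median of 0.32, and of 23 MYC targets outside the pathway 16 were higher and 4 lower, with a median of 0.51. The 128 other ribosome biogenesis genes were mixed, with 14 higher and 22 lower and a median of -0.027. The members' summed level was 1.14 ± 0.0548 times that of G1 in S cells (SD, n = 5 libraries) and 1.10 ± 0.0648 times in G2M cells.

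In G2M cells 6 members were higher than in G1 and 0 lower (0 at an unadjusted p under 0.05, 0 by DESeq2), where 7.33% of all genes were called higher and 3.86% lower. The median was 0.13 over 37 members and -0.026 over all genes. LYAR had 159, 167, 175, 135 and 117 CPM in G2M cells of libraries 6, 7, 8, 10 and 11 and 116, 98.1, 87.2, 73.6 and 57.4 in G1 cells. It was higher in 5 of 5 libraries, by 0.81 on the log2 scale (SE 0.11, edgeR adjusted p = 6.20e-06). DKC1 had 419, 379, 415, 317 and 367 CPM in G2M cells of libraries 6, 7, 8, 10 and 11 and 329.6, 269, 306, 281 and 242 in G1 cells. It too was higher in each library, by 0.41 (SE 0.091, edgeR adjusted p = 0.00362). FBL was higher by 0.38 in 5 of 5 libraries (SE 0.092, edgeR adjusted p = 0.00813), a call lost without library 6 (edgeR adjusted p = 0.0600). NCL, NOP56 and WDR12 were the other 3, by 0.35, 0.34 and 0.50, and WDR12 was higher in 4 of 5 libraries. The NOP56 call did not hold without library 6, 7 or 11 (edgeR adjusted p = 0.0577, 0.102 and 0.0693), nor that of WDR12 without library 6, 7, 8 or 11 (edgeR adjusted p = 0.0919, 0.126, 0.128 and 0.118). The number of members called was 3 without library 6. POLR1B, which Seurat lists as an S-phase gene, was left out of the phase scores. It had log2 differences of 0.072 in S and 0.16 in G2M, neither called.

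**Figure D3:**
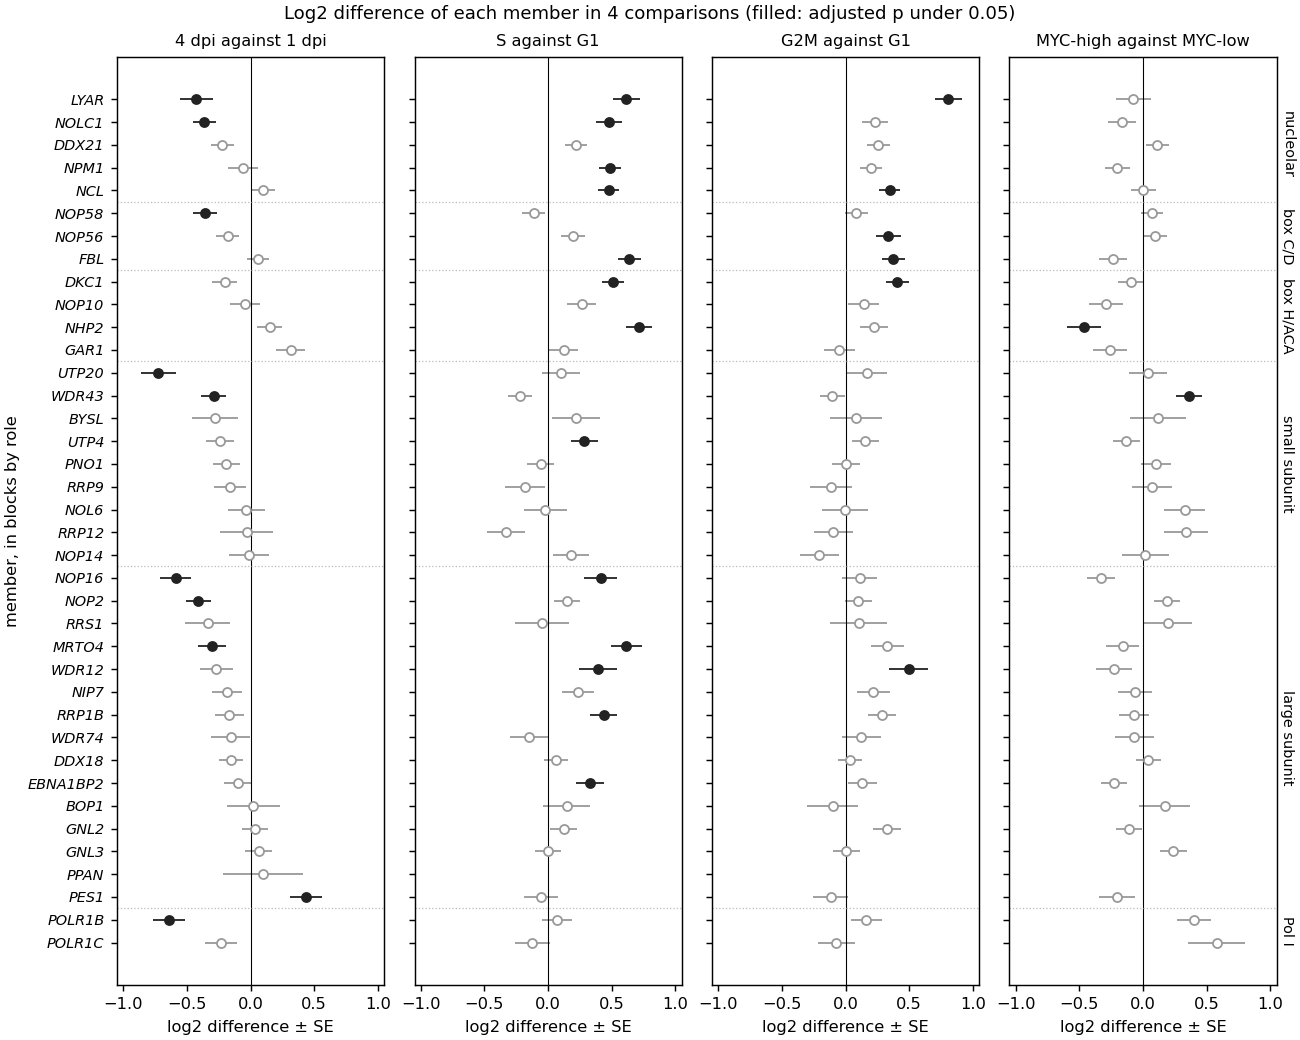
Log2 difference and its standard error for each member (vertical axis, in blocks by role) in 4 comparisons (panels), with filled points at an edgeR adjusted p under 0.05. Time gives 9 filled points to the left and 1 to the right, S and G2M give 13 and 6 filled points to the right, the MYC comparison gives 1 on each side, and PPAN could not be tested in the last 3 panels.

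Across single cells, the members' UMIs followed the cell cycle genes. These relations were computed within each library on cells thinned to 5000 UMIs, over 226, 140, 160, 130 and 159 cells, as descriptions with no test. Cells of a library share their plate, their phases and their original depth. Spearman's rho between the members' sum and the sum of 41 S-phase genes was 0.295, 0.251 and 0.317 in the 1 dpi libraries and 0.231 and 0.326 in those of 4 dpi, a mean of 0.284. It was positive in each library. With 52 G2M genes the mean rho was 0.202, ranging from 0.0959 to 0.315. With the cell's total UMIs before thinning it was 0.257, from 0.118 to 0.415, so deeper cells held a larger share of these transcripts. The median cell had fewer UMIs at 4 dpi, and the part of this relation in the time differences was not tested. The mitochondrial share had a mean of -0.105. With the sum of 79 ribosomal protein genes it was -0.0449, and without NPM1 and NCL -0.216. With MYC rho was 0.00647, -0.0430 and -0.0878 at 1 dpi and 0.0130 and -0.0593 at 4 dpi, a mean of -0.0341. The sign with MYC varied among libraries. In counts this sparse a rho near 0 shows little.

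**Figure D4:**
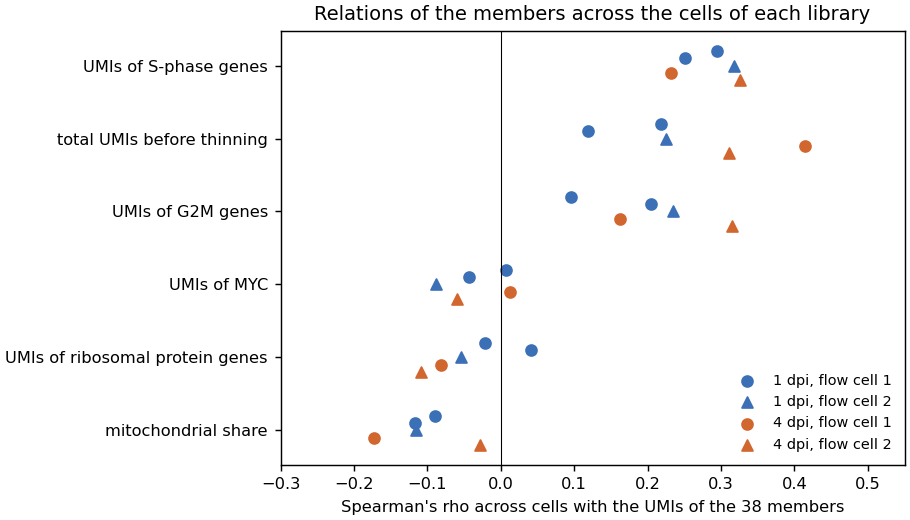
Spearman's rho across the cells of each library (horizontal axis) between the UMIs of the 38 members and 6 other measures (vertical axis), 1 point per library. All 5 points are above 0 for S-phase genes, depth and G2M genes, they lie on both sides of 0 for MYC, from -0.0878 to 0.0130, and they are below 0 for the mitochondrial share.

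Some members tracked the rest of the list better than others. For each member, rho was taken against the summed UMIs of the other 37 and averaged over the 5 libraries. It was 0.280 for DKC1, 0.253 for NOLC1 and 0.238 for NCL, and -0.00890 for PPAN and -0.00903 for POLR1C. The first 3 had a UMI in 73.5%, 72.4% and 83.9% of thinned cells, against 2.58% for PPAN and 18.4% for POLR1C. The part of detection in this order was not tested. DKC1 was between 0.224 and 0.340 in the separate libraries, while NOLC1 ranged from 0.0689 to 0.472.

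Among 3843 genes outside the pathway with a UMI in at least 20% of the thinned cells, those most like the members' sum were ENO1, a glycolytic enzyme, with a mean rho of 0.315 over 5 libraries, RAN, the GTPase of nuclear transport, with 0.312, and TUBA1B, a tubulin, with 0.308. HSPD1, the mitochondrial chaperonin, had 0.301, HNRNPAB, an RNA-binding protein, 0.297, and PTMA, prothymosin, 0.294. FABP5, a fatty acid binding protein, had 0.293, CCT5, a subunit of the cytosolic chaperonin, 0.293, HSP90AB1, a chaperone, 0.286, and HMGB1, a chromatin protein, 0.282. The median of the 3843 genes was 0.00607. The genes named had a UMI in 62.8% (FABP5) to 99.9% (ENO1) of thinned cells, and the part of detection in this ranking was not tested. The value for ENO1 lay between 0.249 and 0.369 across libraries, and the next genes in the order do not differ beyond that spread.

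The same question was put to summed cells. Within each library the cells with the most MYC per UMI were set against those with the least, each class being 1 of 3 of equal size. Of 37 members tested, 1 was higher in the MYC-high cells and 1 lower, where 4.17% of all genes were called higher and 2.94% lower. The median log2 difference was 0.0031 over the members and 0.0019 over all genes. WDR43 had 173, 194, 229, 156 and 169 CPM in MYC-high and 143, 168, 160.4, 129.6 and 112 in MYC-low cells of libraries 6, 7, 8, 10 and 11. It was higher in 5 of 5 libraries, by 0.36 (SE 0.10, edgeR adjusted p = 0.0366), a call lost without library 6, 7, 8 or 11 at edgeR adjusted p = 0.119, 0.0818, 0.153 and 0.0753. NHP2, named here after its values were seen, had 124, 158, 118, 213 and 169 in MYC-high and 205, 217, 237, 184 and 209 in MYC-low cells. It was lower in 4 of 5 libraries, with a log2 difference of -0.46 (SE 0.13, edgeR adjusted p = 0.0425), a call lost without library 6, 7 or 8 at edgeR adjusted p = 0.211, 0.131 and 0.212. Without library 10, 4 members were called, NHP2, NOP16, POLR1C and WDR43. No member was called in all of the time, S and MYC comparisons.

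Other lists had more calls or fewer between these cells. Of 78 ribosomal protein genes, 39 were lower in MYC-high cells and 0 higher (0 at an unadjusted p under 0.05, 0 by DESeq2), with a median of -0.31. Of the 128 other ribosome biogenesis genes 3 were higher and 1 lower. Of 23 MYC targets outside the pathway 1 was higher and 0 lower by edgeR (8 lower at an unadjusted p under 0.05, 0 by DESeq2), with a median of -0.17 and 16 below 0. The phases of the MYC classes were unlike at 1 dpi, where 70.7%, 73.3% and 80.8% of MYC-high cells of libraries 6, 7 and 8 were in G1 against 42.7%, 43.8% and 51.9% of MYC-low cells. At 4 dpi the shares were 48.8% and 50.9% against 48.8% and 49.1%. The classes also differed in depth. MYC-high cells had medians of 27780, 34007, 21494, 31455 and 14784 UMIs in libraries 6, 7, 8, 10 and 11, against 31645, 36197, 24827, 22735 and 17194 in MYC-low cells, fewer in 4 libraries and more in library 10. Their mitochondrial medians were 13.3%, 10.1%, 10.3%, 10.8% and 11.8% against 13.2%, 12.4%, 11.2%, 13.5% and 12.9%. Fits of the MYC comparison on G1 cells alone, on thinned cells and at a mitochondrial maximum of 15% are given with the alternatives.

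Whether these differences changed between the time points was tested by interactions, chosen after seeing the data. For MYC-high against MYC-low cells 0 of 37 members were called by edgeR and 0 by DESeq2, where 0.385% of all genes were called either way. At an unadjusted p under 0.05 there were 9 of 37, beside 1182 of 10901 among all genes. Of the 9, 8 were more positive at 4 dpi, among them the 5 nucleolar scaffold proteins and helicases, and of the 1182 genes 700 were. Other lists were unlike each other at that threshold, with 29 of 78 ribosomal protein genes and 13 of 23 MYC targets outside the pathway more positive, and 3 of the 128 other ribosome biogenesis genes more positive and 1 less. LYAR had log2 differences of -0.34, -0.30 and -0.35 at 1 dpi and 0.21 and 0.65 at 4 dpi. Its interaction was 0.75 (SE 0.21, edgeR adjusted p = 0.170). POLR1C went the other way, with 1.01, 1.45 and 0.71 at 1 dpi and -0.72 and -0.033 at 4 dpi, an interaction of -1.47 (SE 0.32, edgeR adjusted p = 0.0539). At 1 dpi a larger share of MYC-high than of MYC-low cells was in G1, while at 4 dpi the shares were close. Among the 8, LYAR, NHP2, FBL, NOLC1, NPM1, DKC1 and NCL were called higher in S than in G1, and DDX21 was not. The interaction of MYC class with time was not fitted on G1 cells alone, so the part of phase in it was not tested. Without library 11, 3 members were called, NHP2, NOLC1 and POLR1C, at edgeR adjusted p = 0.0101, 0.0383 and 0.00261, with 1 library left at 4 dpi. For S against G1 the interaction called 0 members by either tool (2 at an unadjusted p under 0.05), where 0.210% of all genes were called. For G2M against G1 it called 0 by either tool (1 at an unadjusted p under 0.05), where 0.0458% were called.

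**Figure D5:**
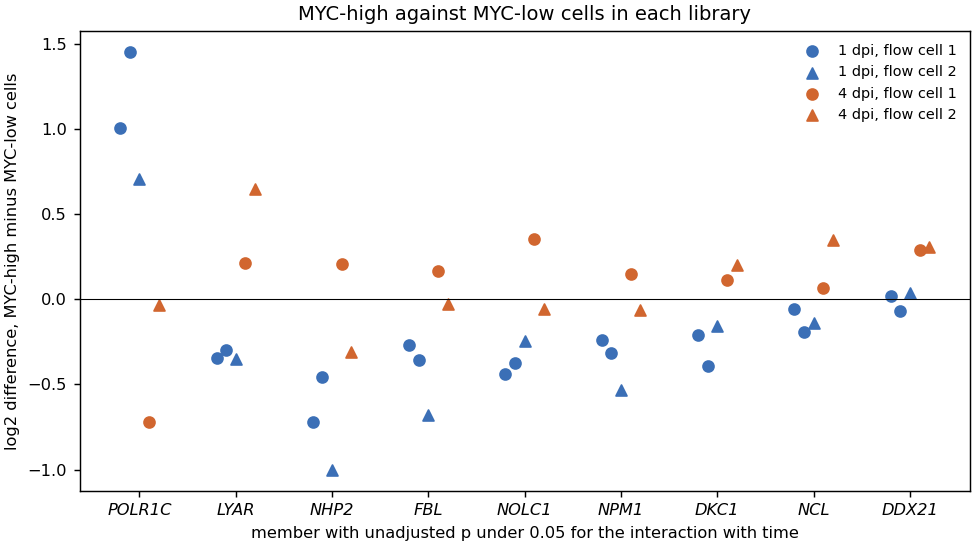
Log2 difference of MYC-high minus MYC-low cells in each library (vertical axis) for the 9 members with an unadjusted p under 0.05 for the interaction with time (horizontal axis), 1 point per library. LYAR, DKC1 and NCL lie below 0 at 1 dpi and above 0 at 4 dpi, and POLR1C the reverse, though none passed the adjusted test. The MYC classes had unlike phases at 1 dpi, and the part of phase was not tested.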

How the data were processed

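The authors sequenced SW480 cells from zebrafish xenografts by SORT-seq on 5 plates of 384 wells, mapped reads with BWA to hg38 transcripts and deposited UMI counts per gene and well, with no filter on wells. Members and gene lists were chosen with earlier results of these data known. Of 1920 wells, 826 had over 2000 genes and under 25% of UMIs from mitochondrial transcripts, and these were kept as cells. For this filter detected ERCC controls counted as genes, and their UMIs counted in the total. Libraries 6, 7, 8, 10 and 11 had 7503665, 5376698, 4781448, 3961242 and 3789632 UMIs in these cells, and median cells had 30874, 36197, 25938, 26120 and 18823. Genes listed in all 5 libraries and found in at least 10 wells, 15028, were analysed.

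UMIs were summed per library, or per library and class of cells, with at least 10 cells a sum. They were tested with edgeR 4.0.16 (TMM, filterByExpr, quasi-likelihood F test, Benjamini-Hochberg over all tested genes, threshold 0.05) in R 4.3.3. DESeq2 1.42.0 was the alternative tool. Comparisons of phases and of MYC classes kept library as a block. Phases came from Seurat 5.3.0 on 815 cells thinned to 5000 UMIs. POLR1B was left out of the scoring because it is both a member and an S-phase gene of Seurat. The replicate is the plate. Whether plates share tumors is not known, so p-values may cover technical spread alone. With 3 against 2 libraries the smallest exact two-sided p is 0.1. No doublet caller was run. The code was tested on simulated data.

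In the time comparison, members that were called without overlap and the most abundant of each role were named. In the others, those were the 3 largest rises and falls among calls of the same direction in all libraries. The 3 largest rises and falls among calls without overlap were named from the other ribosome biogenesis genes, beside MYC and its partners and the 10 genes most like the members' sum. Promoters came from RefSeq (GRCh38.p14) and were matched by symbol for 31 members. Alternatives were other tools, filters on genes and wells, depth, scaling, flow cell, phase scoring, blocks, MYC classes and each library left out. PWP2, PPAN-P2RY11, EIF4A1 and TYMS were listed but not in the joined table. The entry of 1 listed marker is not reported here.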

Additional observations from a re-analysis of the deposited data

Results flagged for a closer look

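Wells over the mitochondrial limit were left out of the comparisons, and in the 4 dpi libraries they hold UMIs of the members that no comparison used. In library 10 the members had 3873 CPM in 25 such wells, against 6729 in the cells kept. In library 11 they had 3873 CPM in 30 such wells, against 7045. With mitochondrial UMIs left out of the totals, the values were 6908 against 7619 and 7219.6 against 8044. The 1 dpi libraries 6, 7 and 8 had 1, 3 and 1 such wells.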

How the results depend on the processing

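No paired analysis was possible because the 1 dpi and 4 dpi plates share no replicate numbers. Both time points share 2 flow cells, and with flow cell as a term 1 member was called higher and 9 lower, with a median of -0.19. Of the summary values, 132 under an alternative stayed near the value reported and 78 moved. Of values of single named genes, 367 kept their side of the threshold, 105 fell short of it and 1 came to pass it. Thinning leaves fewer UMIs to test, and leaving out a library leaves fewer samples. For other alternatives the cause was not tested. Without library 10 or 11, 1 library is left at 4 dpi and is assumed to vary like those of 1 dpi. The interactions with time, the relations in G1 cells and the sum without NPM1 and NCL were chosen after seeing the data. Depth limits the least abundant members, since PPAN could be tested between the time points but not between phases.

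With cells thinned to 5000 UMIs, 1103 genes were called between the time points in place of 3484, and 5 members in place of 10. In S cells the genes were 1228 in place of 3730. In G2M cells they were 302 in place of 1188, with 2 members in place of 6. For time in G1 cells they were 534 in place of 2316, with 2 members in place of 7. For time in S and G2M cells they were 315 in place of 1729, with 1 member in place of 7. For time by phase they were 26 in place of 87, and for MYC 242 in place of 776, with 0 members in place of 2 by edgeR. With ERCC scaling edgeR called 2 genes and 0 members between the time points.

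At a mitochondrial maximum of 15%, the time comparison called 9 members, without NOP58 and WDR43 and with DKC1 (edgeR adjusted p = 0.0485). Genes called were 2282 for S, 707 for G2M (with 2 members), 153 for time by phase and 464 for MYC (with 0 members by edgeR). With no library block they were 2192 for S, 652 for G2M and 37 for MYC (with 0 members by edgeR). DESeq2 called 1343 genes for time in G1 cells, 830 for time in S and G2M cells (with 4 members), 22 for time by phase, 436 for MYC (with 1 member) and 36 for S by time against 23. With no filter on low counts, time by phase had 147 genes. With phases scored on all UMIs, G2M had 2 members. A split of cells by MYC into 2 classes gave 1 member, and G1 cells alone 396 genes and 0 members by edgeR. In G1 cells alone the log2 differences were 0.40 for WDR43 and -0.53 for NHP2 (edgeR adjusted p = 0.118 and 0.0632), against 0.36 and -0.46 in cells of all phases.

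With each library left out in turn, members called between the time points ranged from 5 to 8. G2M gave 759 to 1205 genes and 3 to 8 members, time in G1 cells 1210 to 1889 and 1 to 6, and time in S and G2M cells 824 to 1296 and 3 to 5. Time by phase gave 19 to 76 genes, and MYC 207 to 1038 genes and 0 to 4 members. By time, S gave 6 to 22 genes, G2M 0 to 19 against 5, and MYC 14 to 157 against 42, with 0 to 3 members against 0 by edgeR.

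Across cells, the mean rho with MYC changed sign, from -0.0341 to 0.0128 without NPM1 and NCL and 0.00327 on all UMIs, and was -0.0697 in G1 cells alone. Without NPM1 and NCL that with ribosomal protein genes was -0.216. Among G1 cells rho was 0.197 with S-phase genes and -0.199 with the mitochondrial share.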
